A study of Mus musculus with 12 samples.

Results

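Cyclic AMP (cAMP) is a small messenger molecule made from ATP by adenylyl cyclases, membrane enzymes that most often answer to receptors coupled to the stimulatory G protein. Phosphodiesterases break it down, and its best known effector is protein kinase A (PKA), in which cAMP binds regulatory subunits and frees catalytic subunits that phosphorylate target proteins, the transcription factor CREB among them. In macrophages and microglia, the resident macrophages of the brain, raised cAMP is known to dampen inflammatory cytokine output, and the phosphodiesterase Pde4b is known in mouse macrophages for sustaining it. The regions described here are those whose assigned gene is an adenylyl cyclase (Adcy), a phosphodiesterase (Pde) or a PKA subunit (Prkaca, Prkacb, Prkar1a, Prkar1b, Prkar2a, Prkar2b) by its symbol. This name rule found 281 of 104981 regions, assigned to 33 of 18207 genes. It also took in Pde4dip, Pde6d and Pde12, which share the symbol and not the enzyme activity. Pde4dip encodes myomegalin, a scaffold protein of the Golgi and centrosome, Pde6d a carrier of prenylated proteins, and Pde12 an enzyme that cleaves oligoadenylates. No region analysed here was assigned to Adcy1, Adcy2, Adcy10, Pde1c, Pde6b, Pde6c, Pde6g, Pde8b or Pde11a.

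The measurement was H3K27ac, acetylation of histone H3 at lysine 27 and a mark of active promoters and enhancers, by chromatin immunoprecipitation and sequencing of sorted cortical microglia. Mice at postnatal day 30 were given interleukin-33 (IL-33, a cytokine released by damaged or stressed cells) or vehicle into the ventricle of 1 side of the brain and killed 4 h later. The 8 libraries came from 8 mice, with female mice 3, 4, 7 and 8 and male mice 1, 2, 5 and 6. The labels give the sex of a mouse and not its injection, its strain or the sorting gate, so IL-33 and vehicle are compared only through the authors' deposited table, and values per library are given by mouse.

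Levels are tags scaled to 10000000 per library. Female libraries held 2155209 to 4133042 tags, so 1 read counts as 2.42 to 4.64 normalised tags there, and male libraries held 5160915 to 10019606 tags, with 1 read at 1 to 1.94. At promoters, all 12 microglial markers checked averaged at least 10 tags, and their sum was 2190 to 3080 tags in female and 1700 to 2160 tags in male libraries. Only 3 of the 8 neuronal and 2 of the 6 astrocyte markers had a region within 1000 bp of a start site. None of these averaged 10 tags (highest means 8.92 and 1.10), and the other neuronal and astrocyte markers had no value. Mog at 37.9, Mbp at 16, Pecam1 at 64.0 and Mrc1 at 31.0 tags did pass 10 tags. The summed oligodendrocyte markers ran from 26.6 to 111 tags in female and from 17 to 68.2 tags in male libraries. In such bulk material, fewer cells carrying the mark and less of the mark per cell cannot be told apart.

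The promoters of 5 genes are printed because the results below turn on them: Prkar2a and Prkacb carried high promoter levels, Pde4b and Adcy7 are the phosphodiesterase and the cyclase with the most regions, and Prkaca differed between female and male libraries. Each is the stretch of 250 bases before an annotated start site lying in the strongest of the gene's regions that contain a start site, from RefSeq on GRCm38.p6, read 5′ to 3′ on the gene's strand, with matches to TGACG or its reverse complement, the core of the cAMP response element (CRE), in capitals.
Prkar2a, chr9:108691893-108692142, plus strand: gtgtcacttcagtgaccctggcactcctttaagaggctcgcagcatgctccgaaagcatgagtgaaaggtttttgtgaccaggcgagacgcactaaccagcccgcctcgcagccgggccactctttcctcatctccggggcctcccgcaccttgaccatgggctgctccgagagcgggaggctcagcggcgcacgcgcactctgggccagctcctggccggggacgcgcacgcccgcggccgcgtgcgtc
Prkacb, chr3:146812947-146813196, minus strand: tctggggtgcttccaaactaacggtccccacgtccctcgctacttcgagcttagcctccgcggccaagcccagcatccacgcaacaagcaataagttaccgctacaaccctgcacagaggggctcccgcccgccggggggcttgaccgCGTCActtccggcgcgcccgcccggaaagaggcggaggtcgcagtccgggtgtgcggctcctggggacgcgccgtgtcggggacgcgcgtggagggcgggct
Pde4b, chr4:102569810-102570059, plus strand, an internal start site: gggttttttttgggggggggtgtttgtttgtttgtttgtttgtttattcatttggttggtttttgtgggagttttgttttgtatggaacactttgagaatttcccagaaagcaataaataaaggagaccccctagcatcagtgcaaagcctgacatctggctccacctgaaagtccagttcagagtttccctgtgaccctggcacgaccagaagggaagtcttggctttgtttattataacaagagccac
Adcy7, chr8:88293954-88294203, plus strand: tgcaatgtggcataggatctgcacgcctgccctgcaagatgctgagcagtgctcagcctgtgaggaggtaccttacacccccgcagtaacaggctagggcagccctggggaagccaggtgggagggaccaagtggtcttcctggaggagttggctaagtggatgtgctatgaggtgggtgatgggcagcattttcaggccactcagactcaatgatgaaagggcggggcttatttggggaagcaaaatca
Prkaca, chr8:83972728-83972977, plus strand: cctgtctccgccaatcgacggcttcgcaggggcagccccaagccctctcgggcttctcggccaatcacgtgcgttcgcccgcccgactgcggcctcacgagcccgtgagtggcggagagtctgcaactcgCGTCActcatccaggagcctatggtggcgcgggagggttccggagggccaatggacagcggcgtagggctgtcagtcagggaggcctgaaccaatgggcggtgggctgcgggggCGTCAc

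The printed promoters are of different base composition. Prkacb held 69.2% G and C with 30 CpG pairs, Prkaca 68.8% with 25 and Prkar2a 66.8% with 24. Adcy7 held 56.4% with 3 CpG pairs and Pde4b 43.2% with 1. The full CRE, TGACGTCA, was found on either strand in 1 of 58 promoter windows of 26 member genes (1.72%), against 1.55% of 32841 RefSeq windows of the same length. That window belongs to Prkar1a, the type I alpha regulatory subunit, with the match beginning 49 bases before the start site at chr11:109650949. The core TGACG, which every full CRE contains, was in 13 windows of 11 member genes (22.4%, against 17.8% of all windows). It occurred at 120 and 6 bases before the Prkaca start site and at 102 bases before that of Prkacb. The AP-1 motif TGANTCA was in 2 windows (3.45%, against 6.75%), at Pde6h and at another start site of Adcy7. The NF-kB motif, GGGAN followed directly by TTTCC, was in 0 windows (against 0.356%), and the PU.1 motif GAGGAAGT in 1, at Adcy3 (1.72%, against 2.44%). Windows of neighbouring start sites of 1 gene share bases, and these shares are descriptions of the letters only.

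Promoter levels of the family ran from strong to nearly unmarked, without a gap between neighbouring genes. The level of a gene is that of its strongest 500 bp region within 1000 bp of a start site. Such a region existed for 25 of the 33 genes, and its mean over the 8 libraries was at least 10 tags for 15 of them. PKA subunits and a few phosphodiesterases led. Prkar2a, the type II alpha regulatory subunit, averaged 209 tags, with 129 to 227 in female and 166 to 260 in male libraries. Pde3b, a phosphodiesterase inhibited by cGMP, averaged 194 tags with a range of 102 to 293, and Prkacb, the beta catalytic subunit, 177 with a range of 114 to 243. The mean of Prkar1a, 192 tags, pools unlike groups, with 52.2 ± 67.6 tags in female and 333 ± 61.5 in male libraries (SD, n = 4 each). Pde7a, at 47.0 tags over all libraries, likewise had 6.98 ± 5.47 in female and 87.0 ± 27.8 in male libraries (SD, n = 4 each). Pde4b averaged 166 tags with a range of 85.3 to 283, and Adcy7, the main cyclase of blood cells, averaged 94.3 with a range of 49.2 to 158. Pde12 (89.2), Pde4dip (86.3), Pde7a and Prkar1b (44.8) completed the upper 10. Each gene's range over the libraries overlapped that of its neighbour in this order, so the order of adjacent genes is not fixed beyond their spread.

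**Figure D1:**
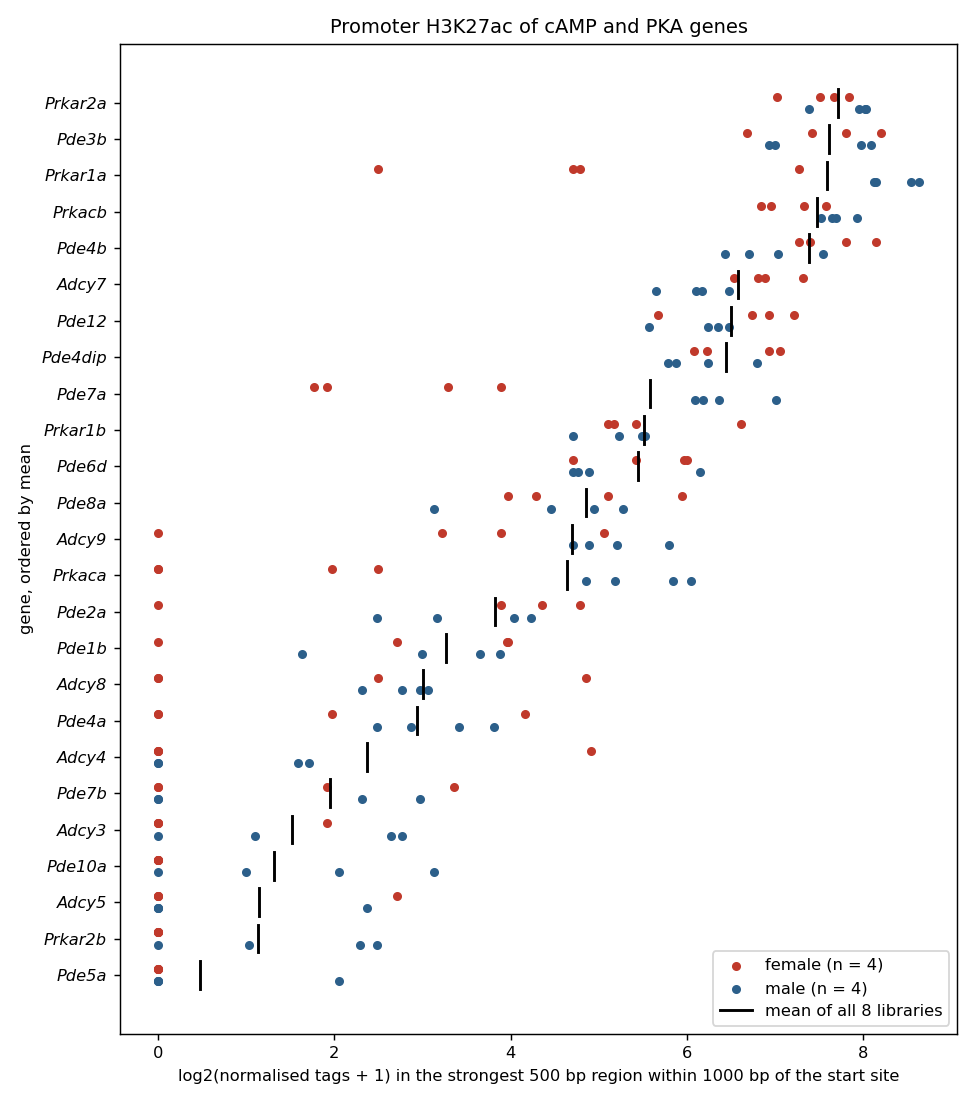
Promoter H3K27ac of the 25 genes with a region within 1000 bp of a start site, as log2(normalised tags + 1) on the horizontal axis, with female libraries above male ones in each row and the mean of all 8 as a black bar. Prkar2a, Pde3b, Prkar1a, Prkacb and Pde4b lie at the top, and the female points of Prkar1a, Pde7a and Prkaca lie left of the male ones.

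The other cyclases were weak, as was Pde5a, the single cGMP-specific phosphodiesterase with a region within 1000 bp of a start site. Adcy9, a widely expressed cyclase, averaged 24.9 tags at its promoter and the calcium-stimulated Adcy8 7.06. The lowest 5 were Adcy3 (1.87 tags), Pde10a (1.49), Adcy5 (1.22), Prkar2b (1.19) and Pde5a (0.394), each without a read in at least 1 female and 1 male library. Prkar2b, the type II beta regulatory subunit, thus stood far below Prkar2a, whose lowest library exceeded the 4.58 tags of the highest Prkar2b library. Adcy6, Pde1a, Pde3a, Pde4c, Pde4d, Pde6a, Pde6h and Pde9a had regions but none within 1000 bp of a start site. Signal farther out does not enter this level. Pde4a had 6.67 tags by it, while its regions 2.1 and 2.74 kb past a start site averaged 101 and 123 tags.

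Of the 281 regions, 185 lay more than 3000 bp from a start site, and a few genes held most of them. Pde4b had 34 such distal regions, whose summed signal was 453 to 780 tags over the libraries. Pde4dip had 20 with 481 to 1620 tags, Pde10a 14 with 48.9 to 177, Adcy9 13 with 174 to 429, Adcy7 12 with 296 to 794 and Pde3b 10 with 139 to 314. Prkar2a had only 3 distal regions with 24.9 to 55.7 tags, and Prkaca and Prkacb had none. Pde10a combined 14 distal regions with a promoter at 1.49 tags, whereas Prkacb had 177 tags at its promoter and no distal region.

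IL-33 moved distal H3K27ac at some of these genes, up in regions assigned to Pde4b, Pde4dip, Pde6h and Pde4a, and down in regions assigned to Adcy9, Pde4b, Adcy8 and Pde2a. The authors' deposited table compares IL-33 with vehicle at regions more than 3000 bp from a start site, and gives an adjusted p for 91 member regions of 17 genes. Of these, the authors' deposited table has 13 as risen (14.3%) and 7 as fallen (7.69%), taking an adjusted p under 0.05 as the threshold. Over all 40352 regions that have an adjusted p there, the authors' deposited table shows that 10.2% rose and 7.99% fell, so the members' shares are near the background. Without Pde4dip, Pde6d and Pde12, the authors' deposited table has 8 rises among 77 regions, or 10.4%. The median log2 fold change of the tested members in the authors' deposited table was 0.19, against -0.01 for all regions. By gene, 4 of 17 had a rise (23.5%) and 4 a fall (23.5%) in the authors' deposited table, against 19.4% and 20.9% of the 7838 genes tested. A further 50 member regions stand in the authors' deposited table without an adjusted p, all with a mean of 5.69 tags or less. The other 44 distal member regions are not in that comparison.

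**Figure D2:**
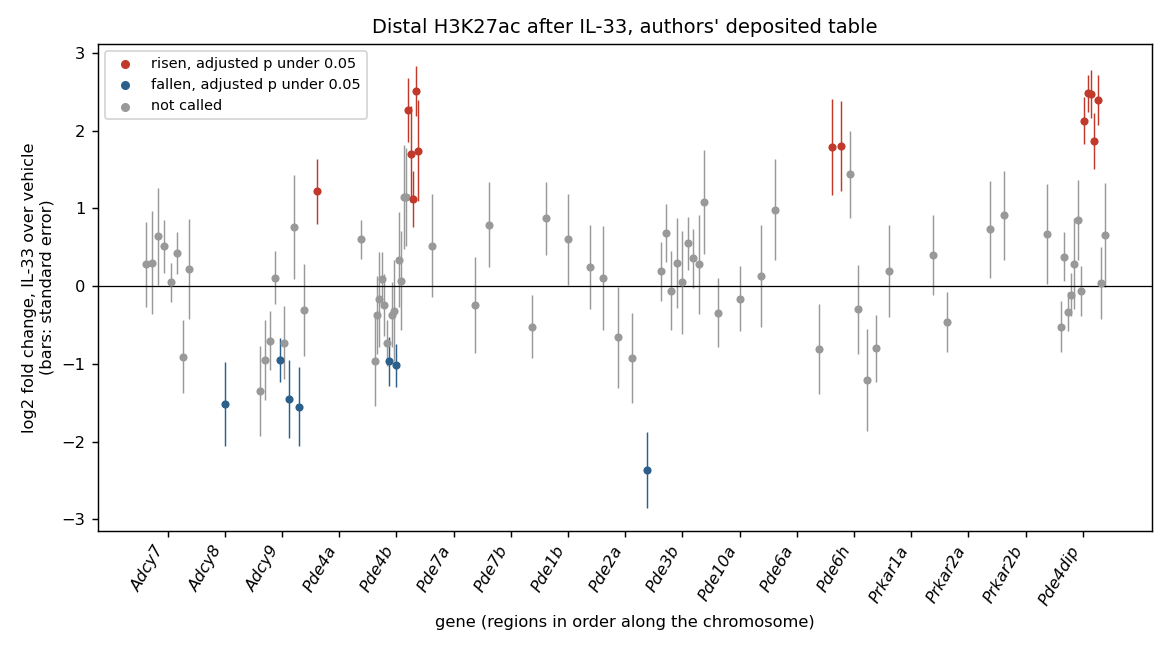
Log2 fold change of H3K27ac, IL-33 over vehicle, with its standard error, for the 91 member regions given an adjusted p by the authors' deposited table, grouped by gene. The 13 risen regions belong to Pde4a, Pde4b, Pde6h and Pde4dip, the 7 fallen ones to Adcy8, Adcy9, Pde4b and Pde2a, and no PKA subunit has a called region.

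Pde4b, a cAMP-specific phosphodiesterase, had calls in both directions, at different places. Its 5 risen regions lay 0.741 to 39.7 kb beyond the 3′ end of the gene, and the authors' deposited table called all 5 regions there that had an adjusted p. Of the 14 tested regions inside the gene, the authors' deposited table called 0 as risen and 2 as fallen. The last 2 of the 14 before the 3′ end, both faint, each had 1.15 in the authors' deposited table without a call (adjusted p = 0.246 and 0.21). The next protein-coding gene, Sgip1, begins 93.8 kb past the farthest of the risen regions. At the strongest, chr4:102624915-102625415, intergenic and 35.3 kb from the nearest start site, female mice 3, 4, 7 and 8 had 158, 184, 22.3 and 32.5 tags. Male mice 1, 2, 5 and 6 had 137, 89.3, 26.2 and 7.75 tags at the same region. Mice 1 to 4 were high and mice 5 to 8 low, with no overlap, in both sexes. Calls were made on these same libraries, so such a separation at called regions is a description of them and no further evidence. The authors' deposited table gives this region a log2 fold change of 2.51 ± 0.32 (SE), with group values of 6.12 for IL-33 and 3.43 for vehicle on the log2 scale (adjusted p = 7.01e-13).

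At chr4:102608016-102608516, 0.741 kb past the gene, the authors' deposited table gives 2.27 ± 0.41 (SE, adjusted p = 1.65e-06). There female mice 3, 4, 7 and 8 had 61.6, 102, 16.7 and 9.28 tags and male mice 1, 2, 5 and 6 had 63.9, 37.8, 7.34 and 11.6, with mice 1 to 4 again above mice 5 to 8. The remaining risen regions of Pde4b in the authors' deposited table were smaller or fainter, at 1.70 (adjusted p = 0.0393), 1.12 (0.0136) and 1.74 (0.0451). The faintest, at chr4:102647010-102647510, held at most 17.6 tags in a library, and its group values in the authors' deposited table were 2.68 for IL-33 and 0.67 for vehicle. The falls lay in introns. At chr4:102574089-102574589, 4.28 kb from a start site, the authors' deposited table gives -1.02 ± 0.28 (SE, adjusted p = 0.00359). Female mice 3, 4, 7 and 8 had 67.5, 29.0, 123 and 162 tags there and male mice 1, 2, 5 and 6 had 66.9, 50.4, 109 and 91.1, so that mice 5 to 8 were the higher ones. At chr4:102517607-102518107 the authors' deposited table gives -0.97 (adjusted p = 0.0153).

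**Figure D3:**
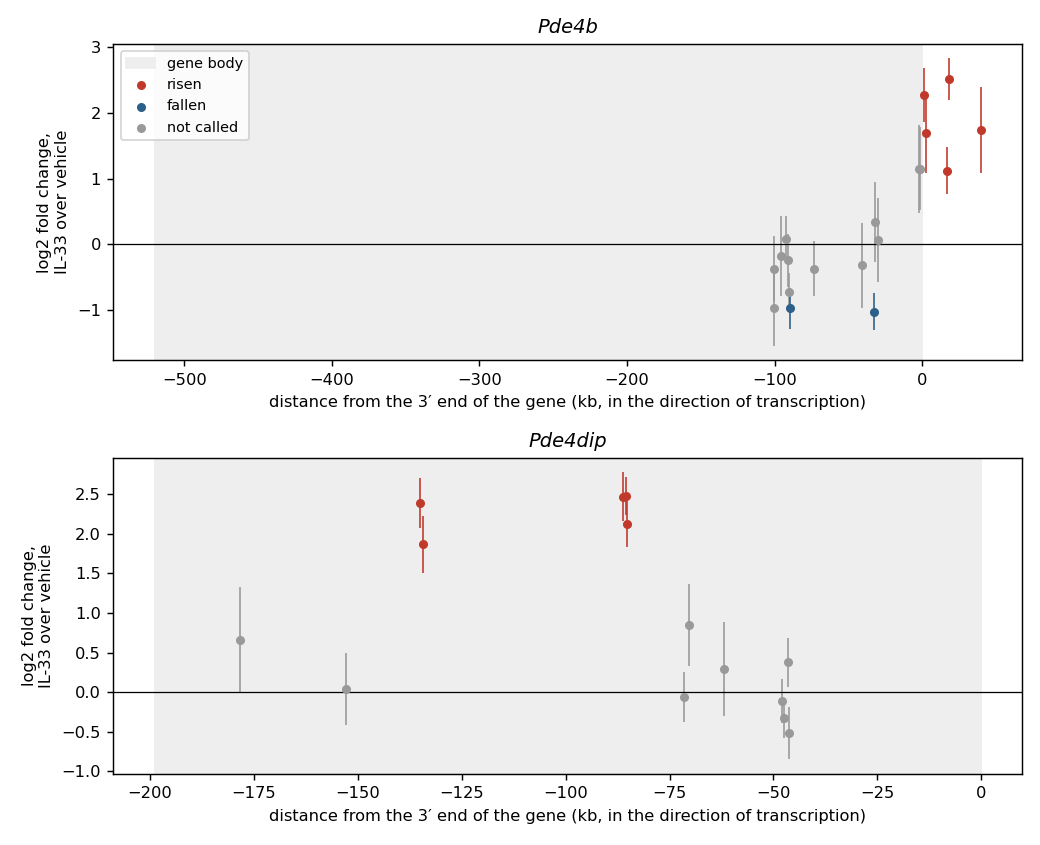
Log2 fold change, IL-33 over vehicle, with its standard error in the authors' deposited table against the distance from the 3′ end of Pde4b (above) and Pde4dip (below), with the gene body shaded. The 5 risen Pde4b regions lie beyond the gene and the 2 fallen ones inside it, whereas the 5 risen Pde4dip regions lie inside that gene in 2 clusters.

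Pde4dip carried the lowest adjusted p among the members. Its risen regions formed 2 intronic clusters, 7.05 to 7.95 kb and 56.1 to 56.9 kb from the nearest start site, with log2 fold changes of 1.87 to 2.48 in the authors' deposited table. The other 9 tested Pde4dip regions ranged from -0.52 to 0.85 in the authors' deposited table, the lowest adjusted p being 0.276. At chr3:97775076-97775576, female mice 3, 4, 7 and 8 had 244, 421, 72.5 and 46.4 tags. Male mice 1, 2, 5 and 6 had 225, 189, 33.5 and 32.9 tags, so the lowest of mice 1 to 4 exceeded the highest of mice 5 to 8. The authors' deposited table gives 2.48 ± 0.24 (SE), with group values of 7.01 for IL-33 and 4.50 for vehicle (adjusted p = 4.72e-21). This region shares bases with the risen region at chr3:97774810-97775310, so their reads are partly the same. The authors' deposited table gives 2.47 (adjusted p = 2.86e-13) at chr3:97775714-97776214 and 2.39 (adjusted p = 3.24e-11) at chr3:97824661-97825161. Joining called regions of like direction within 5000 bp leaves 7 risen and 7 fallen blocks over all members.

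The remaining rises were at Pde4a and Pde6h. In the authors' deposited table, Pde4a, another cAMP-specific phosphodiesterase, had a risen region at chr9:21161223-21161723, 4.24 kb upstream of its start site, at 1.22 ± 0.42 (SE, adjusted p = 0.025). Female mice 3, 4, 7 and 8 had 55.8, 41.1, 5.57 and 37.1 tags there, and male mice 1, 2, 5 and 6 had 51.9, 33.2, 15.7 and 17.4. Here female mouse 8 lay above male mouse 2, so mice 1 to 4 and 5 to 8 overlapped. Pde6h, the inhibitory gamma subunit of the cone photoreceptor enzyme, had no region within 1000 bp of a start site. Its risen regions, which share bases, lay within 1.07 kb past its 3′ end, and the authors' deposited table gives them 1.79 (adjusted p = 0.025) and 1.80 (0.0155). No library exceeded 33.9 tags at either, and the vehicle group values in the authors' deposited table were 0.94 and 1.68.

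**Figure D4:**
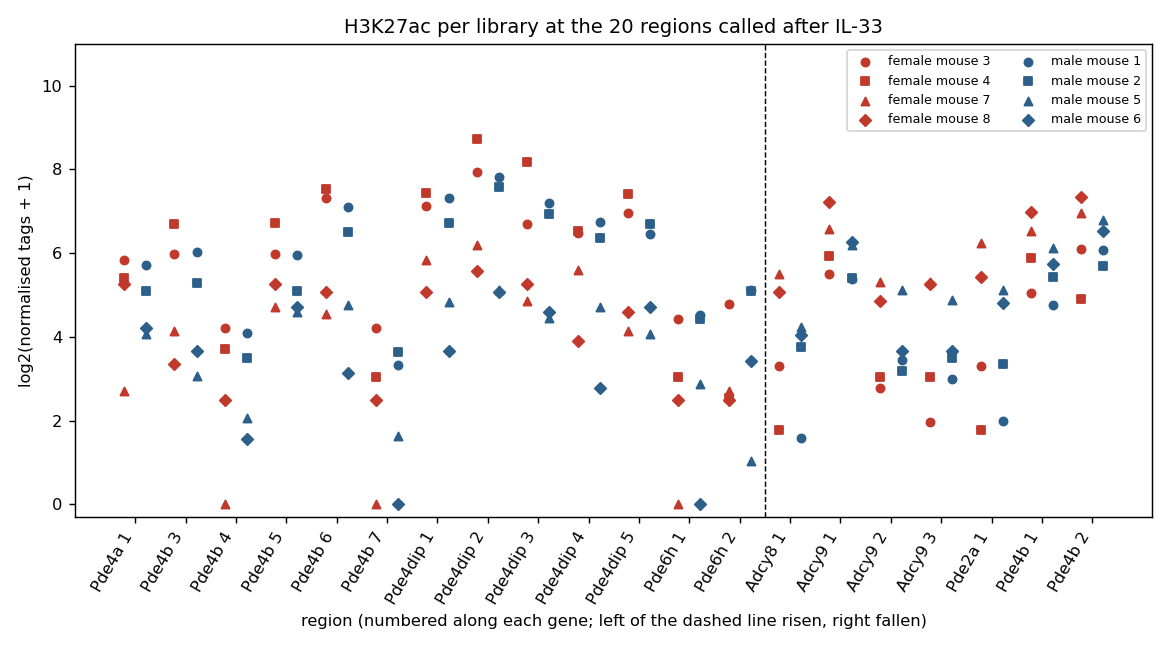
H3K27ac per library, as log2(normalised tags + 1), at the 13 risen and 7 fallen member regions, with female libraries left of male ones in each column. In most risen columns mice 1, 2, 3 and 4 lie above mice 5, 6, 7 and 8, and in most fallen columns below them; the labels do not tie these mice to an injection.

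Regions of adenylyl cyclases with a call had fallen. Among 19 tested regions of Adcy7, Adcy8 and Adcy9, the authors' deposited table has 0 rises and 4 falls (0% and 21.1%, against 10.2% and 7.99% of all regions), with a median of -0.31. The difference from other regions was not tested. Adcy9 had 3 of them. At chr16:4383242-4383742, in an intron, the authors' deposited table gives -0.95 ± 0.28 (SE, adjusted p = 0.00642). Female mice 3, 4, 7 and 8 had 44.0, 60.5, 94.8 and 148 tags there, and male mice 1, 2, 5 and 6 had 40.9, 41.2, 72.3 and 75.6. Mice 5 to 8 were higher than mice 1 to 4 without overlap. The authors' deposited table gives -1.45 (adjusted p = 0.0263) for chr16:4405307-4405807, in another intron of Adcy9. The same authors' deposited table gives -1.55 (adjusted p = 0.0175) for chr16:4464454-4464954, which is intergenic and lies 12 kb from the gene Srl and 27.2 kb from Adcy9. For the single tested region of Adcy8, chr15:64976013-64976513, 53.7 kb outside the gene, the authors' deposited table gives -1.52 (adjusted p = 0.0309). None of the 8 tested Adcy7 regions passed in the authors' deposited table, with values of -0.91 to 0.64 and a lowest adjusted p of 0.175.

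The dual enzymes, which hydrolyse both cAMP and cGMP, gave 0 rises and 1 fall in 19 tested regions of the authors' deposited table (0% and 5.26%, against 10.2% and 7.99% of all regions). Pde2a, which cGMP stimulates, had the largest fall of the family at chr7:101465255-101465755, in an intron 9.44 kb from a start site. Female mice 3, 4, 7 and 8 had 8.80, 2.42, 75.3 and 41.8 tags there, and male mice 1, 2, 5 and 6 had 2.99, 9.16, 33.5 and 27.1. The 4 low libraries were mice 1 to 4. The authors' deposited table gives -2.37 ± 0.49 (SE), with group values of 1.86 for IL-33 and 4.41 for vehicle (adjusted p = 3.38e-05). The 9 tested regions of Pde3b lay between -0.06 and 1.08 and the 3 of Pde1b, a calmodulin-dependent enzyme, between 0.25 and 0.87 in the authors' deposited table, and none passed.

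No PKA subunit region was called, out of a number too small to set against the 10.2% risen and 7.99% fallen over all regions of the authors' deposited table. The 6 tested regions belong to Prkar1a, Prkar2a and Prkar2b, with values between -0.46 and 0.91 and a median of 0.53 in the authors' deposited table. The lowest adjusted p of the 3 genes in the authors' deposited table were 0.675, 0.466 and 0.288. The catalytic subunits had no region in that comparison, and promoters are outside it, so their response to IL-33 was not compared here.

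Genes around the family, from lists of anchors, inhibitors, receptors and effectors, gave counts on both sides. For the 60 tested regions of 11 anchoring proteins, which tether PKA to sites in the cell, the authors' deposited table has 4 rises and 9 falls (6.67% and 15.0%, against 10.2% and 7.99% of all regions), 5 of the falls being at 1 gene. By the authors' deposited table the lowest adjusted p was at Cbfa2t3, a transcriptional corepressor that binds PKA, with 5 of 8 regions fallen and -2.12 at the strongest (adjusted p = 2.4e-11). Ezr (ezrin) had 3 rises and 2 falls and Akap5 1 of each in the authors' deposited table. For 65 regions of the stimulatory G protein and its receptors, the authors' deposited table has 6 rises and 7 falls (9.23% and 10.8%), near the background. The authors' deposited table gives Ptger2, a prostaglandin E receptor, 2 rises with 0.88 at the strongest (adjusted p = 4.32e-05). The authors' deposited table gives Gnas, the G protein alpha subunit, 3 falls in 4 regions with -1.32 at the strongest (adjusted p = 0.000237).

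Among exporters and effectors other than PKA, the authors' deposited table has 6 rises and 1 fall in 12 regions (50% and 8.33%, against 10.2% and 7.99% of all regions). Of these, 5 rises in 6 regions were at Popdc2, a membrane protein that binds cAMP, where the authors' deposited table gives 2.15 at the strongest (adjusted p = 2.93e-10). The authors' deposited table has 1 rise of 1.59 at the cAMP exporter Abcc4 (adjusted p = 0.00653) and 1 fall, -1.59, at the channel Hcn2 (adjusted p = 0.0267). For CREB factors and coactivators, the authors' deposited table has 2 rises and 1 fall in 29 regions (6.9% and 3.45%, against 10.2% and 7.99%), with Creb5 at 1.91 (adjusted p = 0.0126), Creb1 at 1.59 (0.0286) and Ep300 at -0.75 (0.0419). PKA inhibitors had 1 fall in 21 regions (4.76%, against 7.99%), at Pkig with -1.05 (adjusted p = 0.00316), and the 1 tested region of the cAMP-activated exchange factors was not called in the authors' deposited table.

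Between female and male mice, 4 promoter-side member regions had less H3K27ac in female libraries, at Pde7a, Prkaca, Prkar1a and Pde3b. The fit (limma on log2(tags + 1), difference female minus male) tested 102 member regions of 23 genes among 53348 regions. It placed 4 members lower (3.92%) and 0 higher in female libraries at an adjusted p under 0.05, against a background of 1.87% lower and 0.15% higher. Within 1000 bp of a start site it placed 4 of 29 member regions lower (13.8%, against 5.64%), and farther away 0 of 73 (against 0.216%). At an unadjusted p under 0.05, limma placed 7 member regions lower (6.86%, against 5.03% of all) and 5 higher (4.9%, against 7.7%). Female and male libraries also carry different dates, index designs and depths, so sex and library batch cannot be told apart. The injection of each mouse is not given, so p-values measure a spread between mice that may include an effect of IL-33.

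Pde7a, a cAMP-specific phosphodiesterase, was the clearest. At chr3:19311145-19311645, over its start site, female mice 3, 4, 7 and 8 had 8.80, 2.42, 2.79 and 13.9 tags, from 8 reads in all. Male mice 1, 2, 5 and 6 had 128, 81.3, 67.1 and 71.7 tags, from 300 reads, and the groups did not overlap. The difference was -3.69 ± 0.54 (SE) on the log2 scale (limma adjusted p = 0.00287), and its adjusted p stayed between 1.15e-08 and 0.0274 over 15 alternatives. At the Prkaca promoter, of the alpha catalytic subunit, chr8:83972584-83973084, female libraries had 2.93, 0, 0 and 4.64 tags and male libraries 27.9, 35.5, 65.0 and 56.2. Those tags are 2 reads in female and 150 reads in male mice, a female over male ratio per library total of 0.0336 (95% exact binomial interval 0.00403 to 0.123, counting error only). The difference was -4.36 ± 0.82 (SE, limma adjusted p = 0.013). It lost its call without male mouse 1, 2, 5 or 6, at limma adjusted p = 0.0616, 0.0827, 0.136 and 0.122.

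At Prkar1a, the region at chr11:109651040-109651540, centred 369 bp past the start site that the files assign it and itself containing a further RefSeq start site, had 153, 26.6, 25.1 and 4.64 tags in female and 373, 278, 282 and 397 tags in male libraries. Every male library lay above every female one, with a difference of -3.55 ± 0.71 (SE, limma adjusted p = 0.0189). The call was lost without female mouse 7 (limma adjusted p = 0.0602) or without male mouse 1, 2, 5 or 6 (0.0616, 0.0526, 0.0591 and 0.0757). The overlapping region centred 6 bp past the assigned start site averaged 80.0 ± 56.1 tags in female and 212 ± 48.8 in male libraries (SD, n = 4 each), with -1.62 and a limma adjusted p of 0.0758.

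At Pde3b the lower region, chr7:114415595-114416095, averaged 52.1 ± 48.1 tags in female and 263 ± 92.0 in male libraries (SD, n = 4 each). The difference was -2.75 ± 0.58 (SE, limma adjusted p = 0.0258). The call was lost without female mouse 4 or 7 (limma adjusted p = 0.0605 and 0.0568) or without male mouse 2, 5 or 6 (0.0631, 0.0957 and 0.109). Regions just downstream did not follow it. At 957 bp the female mean was 197 and the male mean 192 tags, with a difference of 0.03 (limma adjusted p = 0.982). At 1453 bp female mice 3, 4, 7 and 8 had 96.8, 128, 312 and 343 tags, and male mice 1, 2, 5 and 6 had 83.8, 71.0, 209 and 176. There mice 5 to 8 stood above mice 1 to 4 in both sexes. The labels do not tie these mice to an injection, and the authors' IL-33 comparison does not include the region, so a link of this order to IL-33 was not tested. Over all members, the number of lower regions was 2 without female mouse 7 or male mouse 1, and 1 without male mouse 2, 5 or 6.

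**Figure D5:**
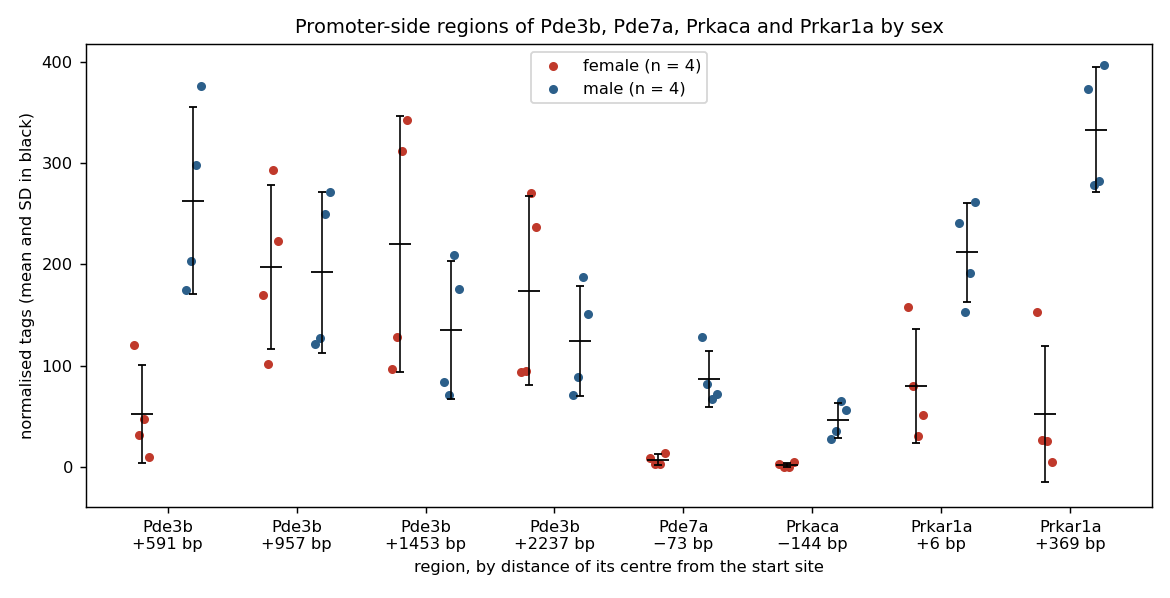
Normalised tags per library at promoter-side regions of Pde3b, Pde7a, Prkaca and Prkar1a, female left of male, with mean and SD in black (n = 4 each). Female points lie below male ones at Pde3b +591 bp, Pde7a, Prkaca and Prkar1a +369 bp, while both sexes overlap at the Pde3b regions 957 to 2237 bp from the start site.

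Base composition moved with this difference. Among tested regions over a RefSeq start site, 21.7% of the 1349 with at least 70% G and C in the 250 bases upstream were lower in female libraries, with a median difference of -0.85. Of the 982 with under 50%, 0.713% were lower, with a median of 0.19. Of the 2731 with 60% to 70%, 4.47% were lower, with a median of -0.09. The start site in the lower Prkar1a region had 80.4%. That of Prkaca had 68.8%, which is in the class of 60% to 70%, and the sequence tables hold none for Pde7a or Pde3b. Adcy9 with 78.8% had a difference of -2.10 (limma adjusted p = 0.335), whereas Pde8a with 68.8% had 0.37, Prkacb with 69.2% had -0.52 and Adcy7 with 56.4% had 0.79. The part of base composition in the 4 calls was not tested. The median difference over all regions was 0.22 with the deposited scaling and -0.11 after TMM rescaling.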

How the data were processed

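The submitters' processing notes name Bowtie2, HOMER and mouse build mm10 (GRCm38) without versions. The authors deposited, as a first file, a normalised signal (tags per 10000000) for 104981 regions of 500 bp in 8 H3K27ac libraries. Scaling factors in the file headers returned whole reads for 100% of values, within 0.01. For IL-33 against vehicle, the authors' deposited table lists 55386 regions and gives, per the file headers, a log2 fold change, log2 group values, a mean level, standard error and statistic (scores), and a p-value, raw and adjusted. The tool behind it and the mice in each group are not stated. Over regions with a mean above 50, the difference of group values rose with the log2 fold change, at a slope of 1.03. Region by region the signs could differ where changes were small. At the Adcy7 region chr8:88241815-88242315 the authors' deposited table gives a log2 fold change of 0.28 and group values differing by -0.18. The 4 input libraries were not analysed here.

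Female and male libraries were compared with limma 3.58.1 (trend) on log2(tags + 1), for regions averaging at least 10 tags. Benjamini-Hochberg adjustment was over all of them. The fit was also run on simulated data with 200 changed regions. That simulation held no effect of batch, injection or base composition, so it cannot show how the fit behaves under them. edgeR 4.0.16 and DESeq2 1.42.0 on the recovered reads, other scalings, filters and left-out libraries were alternatives. Replicates are separate mice, and no library repeats another of the same sex (chi-square between pairs of a group over its degrees of freedom, 1.77 to 7.02). Pairs of a female and a male library were not compared in this way. Symbols of all 33 genes matched the RefSeq gene table of GRCm38.p6, which gave gene bounds. Coordinates are those of the files.

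Named are all genes with a called region in the authors' deposited table, the 5 largest rises and falls, the 10 highest and 5 lowest promoters, the regions called by limma, and up to 3 genes per pathway list (1 of these is not reported here), plus promoters and neighbours set beside them. Members and lists were chosen with earlier results of these data known.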

Additional observations from a re-analysis of the deposited data

Results flagged for a closer look

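Of 64 groups of 4 libraries looked at, 5 held a library standing far from the others by Dixon's ratio of gap to range. Chance flags about 1 in 20 groups whose 4 libraries differ by random spread alone. The groups are of 1 sex each and may mix injections, so that rate need not hold for them. At the fallen Adcy9 region chr16:4405307-4405807, male mouse 5 had 33.5 tags, against 8.02 to 11.6 in the other male mice. At the risen Pde6h region chr6:136964551-136965051, female mouse 3 had 26.4 tags, against 4.64 to 5.57 in the other female mice. At the Prkar1a region chr11:109651040-109651540, female mouse 3 had 153 tags, against 4.64 to 26.6 in the other female mice. At the Prkar1b promoter, chr5:139149808-139150308, female mouse 4 had 96.8 tags, against 33.5 to 41.8. At the Prkar2a promoter, chr9:108691864-108692364, male mouse 2 had 166 tags, against 246 to 260 in the other male mice.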

How the results depend on the processing

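In the authors' deposited table, the 13 risen member regions became 7 at an adjusted p under 0.01, 5 inside gene bounds, 8 without Pde4dip, Pde6d and Pde12, and 7 as blocks. The 7 fallen regions became 3 at 0.01. The 4 genes with a rise became 2 at 0.01 and 1 inside gene bounds. Other thresholds, and adjustment over all regions, kept these counts within 1.5 times. Between female and male libraries, member regions lower in female numbered 4 and ran from 1 to 5 when a library was left out, male mice 2, 5 and 6 giving 1; none was higher in any fit. Regions lower in female over the whole table numbered 998, then 1677 with TMM, 1573 with quantile scaling, 1873 with DESeq2 and 473 to 1388 without a library. Those higher numbered 80, then 26, 47, 48 with edgeR and 22 to 205 without a library. Without a filter on low values, the Prkar1a and Pde3b calls were lost (limma adjusted p = 0.0808 and 0.0895). The Prkaca region averaged under 30 tags and could not be fitted at that filter. Of 99 alternative promoter levels, 99 stayed within the spread between libraries, and of 10 sums of the regions within 3000 bp of a start site, 4 did. Most of the 99 left out 1 library, and such a mean cannot leave the spread of the libraries it comes from. Those within 500 bp of a start site used the same region as before. Only the levels after TMM rescaling could have left the spread, so the count of 99 is little evidence of stability. No paired analysis was possible because the groups that share mouse numbers are the male H3K27ac and input libraries, and the inputs have no values here.

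In female libraries 1 read is worth up to 4.64 tags, so levels of a few tags rest on single reads there. IL-33 and sex could not be crossed, since the labels name no injection per mouse. The causes of the changes between settings were not tested.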
